A study of Homo sapiens with 30 samples.

Results

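The AP-1 genes of the FOS family (FOS, FOSB, FOSL1 and FOSL2) and the JUN family (JUN, JUNB and JUND) were described in RNA-Seq of human cells treated with Omomyc, a miniprotein made from the dimerization and DNA-binding part of MYC that interferes with MYC function. The members were taken by gene name and are 7 of the 57992 genes in the deposited table. In the colorectal carcinoma line HCT116, JUN, FOSL1, FOSB and FOSL2 were higher after 6 h of Omomyc, JUN with a mean RPKM 7.12 times that of untreated cells at the lower dose. By 24 h FOS and FOSB had fallen below the untreated cells, while FOSL1 and FOSL2 had not. In the Burkitt lymphoma line Ramos 5 members could be tested, and no more than 1 passed the test against untreated cells at any dose and time. Of all genes tested there, 23.6% and 27.9% were called at 6 h with 0.5 and 2.5 μM. At 24 h these shares were 0.0146% and 4.61%. FOSL1 was at or near 0 in Ramos cells throughout.

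AP-1 is a dimer of basic leucine zipper proteins that binds short palindromic DNA sites. JUN proteins pair with themselves or with FOS proteins, whereas FOS proteins need a JUN partner. FOS, FOSB and JUN are classical immediate early genes: growth factor and stress kinases act on factors already bound at their promoters, so their mRNA appears within minutes, and it decays quickly through AU-rich elements. FOSL1 and FOSL2 encode the later FRA1 and FRA2 proteins and lack the strong activation domain of FOS. JUNB and JUND can counter JUN at some genes, and JUND is expressed in most cells at rest.

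Cultures of HCT116 cells were untreated or received 2 or 10 μM Omomyc for 6 or 24 h, and cultures of Ramos cells were untreated or received 0.5 or 2.5 μM for the same times. Each of the 10 groups had 3 libraries, which gave 30 libraries of total RNA depleted of rRNA with a stranded kit. The lower HCT116 dose is 2 μM in the labels and 2.5 μM in the study's methods, and a tag gives another time than the titles for the 24 h libraries, for which the titles were followed. The methods describe HCT116 treatment with ProteoJuice, a protein delivery reagent. Whether the untreated cells received it, and how Ramos cells were treated, is not given in the sources used here. Each line has 1 untreated group with no time-matched control, so the effects of Omomyc, its delivery and time in culture cannot be told apart, and every comparison with untreated cells of a line shares those 3 libraries. Both lines are established cell lines. All of the HCT116 libraries had the epithelial markers EPCAM, at 99.1 RPKM or more, KRT8, at 478.8 or more, and the intestinal marker CDX2, at 2.52 or more, while CDX1 and CEACAM5 were listed at 0 and VIL1 did not exceed 0.0602. All 8 B cell markers examined were present in Ramos cells, with MS4A1, which encodes CD20, at 177.9 or more.

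Levels are in RPKM, that is reads divided by gene length and by the mapped reads of the library, so they can be compared between genes per length. The depth of each library is unknown, since read numbers were not among the values, and counting intervals could not be set. A gene was called when limma, fitted to log2(RPKM + 0.5) over all genes whose RPKM averaged 0.5 or more in the libraries compared, gave a Benjamini-Hochberg adjusted p under 0.05. Fold changes are differences on that scale unless a ratio of mean RPKM is named, and errors beside levels are SD with n = 3. Nothing in the labels says that replicates came from separate cultures, so p-values measure only the spread between these libraries. In bulk RNA, fewer cells expressing a gene and less RNA per cell cannot be told apart. Summed over all genes, RPKM ran from 593633 to 660769 in the untreated HCT116 libraries and from 742468 to 1051041 in those at 6 h. The most abundant RNA, 7SL or 7SK, took from 5.48 to 8.49% of the sum in the untreated and from 9.50 to 19.7% in the 6 h libraries. The library of 10 μM at 6 h, replicate 3, had the highest of these values and stood apart from the others of its group. The part of these abundant RNAs in the results at 6 h was not tested. The comparisons were also made after each library was rescaled to an equal sum. That sum includes the abundant RNAs, so this rescaling does not remove their part and is only another choice of scale.

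The 7 genes lie on 5 chromosomes (positions from GENCODE release 29 on GRCh38). FOS (ENSG00000170345) is at chr14:75278774-75282230 on the plus strand and FOSL2 (ENSG00000075426) at chr2:28392448-28417312 on the plus strand. FOSL1 (ENSG00000175592) is at chr11:65892049-65900573 on the minus strand and JUN (ENSG00000177606) at chr1:58780788-58784327 on the minus strand. Chromosome 19 holds the other three, FOSB (ENSG00000125740) at chr19:45467995-45475179 and JUNB (ENSG00000171223) at chr19:12791496-12793315, both on the plus strand, and JUND (ENSG00000130522) at chr19:18279760-18281622 on the minus strand. FOSB lies within ERCC1 and JUNB within HOOK2, each on the opposite strand. The start of FOSL2 overlaps the antisense gene FLJ31356, and a FOSL2 intron holds the short transcript AC104695.3 on the same strand. The other four members overlap no annotated gene. The kit keeps strand, but whether the counting used it is not given in the sources used here.

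Because AP-1 and CREB/ATF proteins act on several of these promoters, the 250 bases before the RefSeq start (GRCh38.p14) were searched on both strands for the letters of their sites, in the 6 members that matched the promoter table. The core TGACG of a cyclic AMP response element (CRE) was present in all 6, against 21.2% of 35116 promoters of the same length. The complete CRE, TGACGTCA, which contains that core, was present only in JUND of the 6, against 1.65% of all promoters. The variant TGACATCA, known as the JUN-type AP-1 site, was present only in JUN, against 2.37%. None of the 6 held the AP-1 site TGANTCA in this window, nor the E box of MYC proteins, CACGTG, nor a CArG box, which occurred in 6.57%, 6.34% and 1.16% of all promoters. Bases farther upstream were not searched, so the window cannot show whether a member has such a site there. The TATA box letters TATAAA were present in FOS, FOSB and JUNB, against 10.7%. The matches are shown because the site letters differ between members that share a core. The capitals mark the match, and each line reads 5′ to 3′ on the strand of its gene.
FOS: tggttgagcccgTGACGtttacactcatt
FOSB: gcaaggggcgggTGACGtaagcagggggg
FOSL2: ggagtctggggtTGACGtgagtgaatcca
JUN: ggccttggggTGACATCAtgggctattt
JUNB: gcttcctgacagTGACGcgagccgcctcc
JUND: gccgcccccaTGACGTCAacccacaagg
These stretches are at chr14:75278752-75278780 for FOS, chr19:45467924-45467952 for FOSB, chr2:28392780-28392808 for FOSL2, chr1:58784097-58784124 for JUN, chr19:12791337-12791365 for JUNB and chr19:18281805-18281832 for JUND. The match began 64 bases before the RefSeq start in FOS, 60 in FOSB, 66 in FOSL2, 67 in JUN, 137 in JUNB and 200 in JUND. The JUN and FOSL2 stretches fall inside the gene as GENCODE draws it, since its starts lie farther upstream, and the FOS stretch spans the GENCODE start. A match of letters is a description of the window and not evidence of binding.

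**Figure D1:**
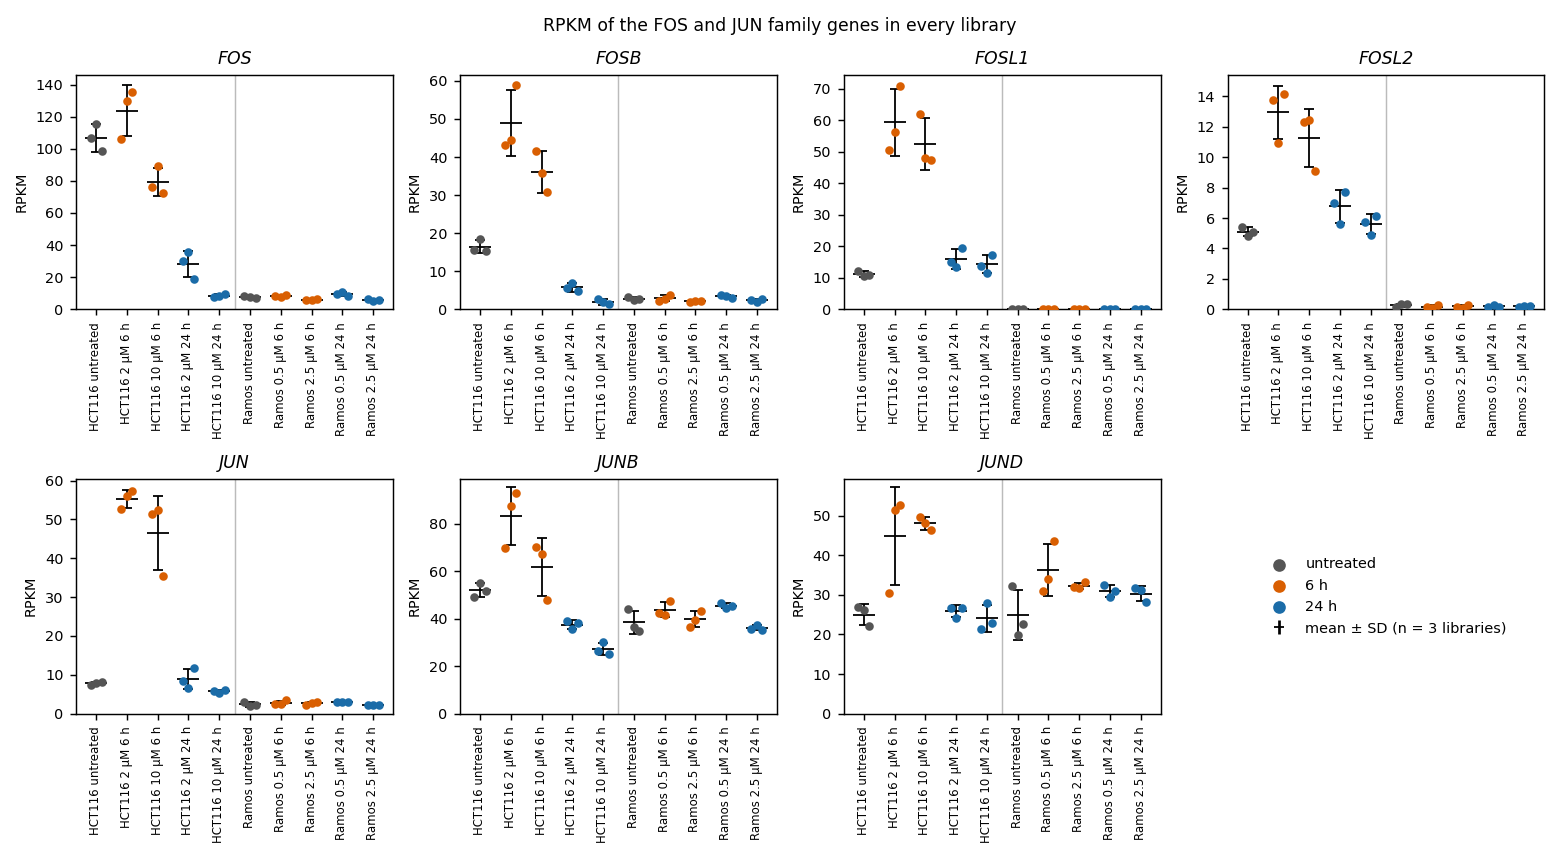
RPKM (linear axis from 0) of each of the 7 genes in every library, 1 panel per gene and 1 column per group, with points for libraries, the line and bar for mean ± SD (n = 3) and the color for time. JUN, FOSL1, FOSB and FOSL2 peak at 6 h in HCT116 cells, FOS falls to between 7.73 and 9.26 with 10 μM at 24 h, and JUN stays between 1.94 and 3.37 in Ramos cells.

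After 6 h of 2 μM Omomyc in HCT116 cells, 6 of the 7 genes were higher than in untreated cells and FOS was not called. Of all genes tested, 47.3% were called in this comparison, 15.5% higher and 31.8% lower. The JUN gene, which encodes the c-Jun subunit, changed most. Its RPKM was 7.24, 7.89 and 8.18 in the untreated libraries and 52.8, 56.0 and 57.3 at 2 μM. All treated libraries lay far above all untreated ones, a ratio of means of 7.12 and a log2 fold change of 2.76 (SE 0.07, adjusted p = 9e-08). FOSL1, which encodes FRA1, followed, from 12.2, 10.4 and 11.0 in untreated cells to 50.6, 56.3 and 71.0. The groups did not overlap, and the log2 fold change was 2.34 (SE 0.12, adjusted p = 3.36e-06). FOSB rose from 15.7, 18.5 and 15.3 to 43.1, 44.6 and 58.8, a log2 fold change of 1.53 (adjusted p = 3.43e-05), and FOSL2 from 5.39, 4.84 and 5.06 to 13.7, 11.0 and 14.2, a log2 fold change of 1.26 (adjusted p = 5.15e-05). In all 6 called members every treated library was above every untreated one, where 57.8% of all genes tested had no overlap in either direction.

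The members with the highest starting levels moved less. JUNB was at 49.3, 55.1 and 51.5 RPKM in untreated cells and at 69.7, 87.4 and 92.7 with 2 μM, a log2 fold change of 0.67 (adjusted p = 0.000795). JUND went from 26.9, 26.1 and 22.1 to 30.5, 51.4 and 52.8. Replicate 1 of the treated group was well under the other two for JUND but still above the untreated range, and the log2 fold change was 0.79 (SE 0.18, adjusted p = 0.00659), a call lost with no filter (0.0566). FOS, the most abundant member in untreated HCT116 cells, was at 106.4, 115.3 and 98.4 RPKM there and at 105.8, 129.8 and 135.6 with 2 μM. These ranges overlapped, and the log2 fold change of 0.21 was not called (adjusted p = 0.112). Without replicate 1 of the treated group FOS was called, at 0.32 (adjusted p = 0.0139). The median gene had a log2 fold change of -0.12, and 32.7% of the called genes were higher. Median-ratio scaling moved the median gene by 0.12, made 51.9% of the called genes higher and called FOS higher by 0.34 (adjusted p = 0.025). Rescaling to an equal sum moved it by -0.30 and left 6.76% of the called genes higher. FOS then was at -0.13 (adjusted p = 0.306), while JUN (2.43), FOSL1 (2.01), FOSB (1.20), FOSL2 (0.94), JUND (0.46) and JUNB (0.33) stayed higher and called.

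With 10 μM for 6 h, 5 members were higher, FOS was lower and JUNB was not called, where 30.0% of all genes tested were called, 8.84% higher and 21.2% lower. JUN stood at 51.5, 52.4 and 35.5 RPKM, with replicate 3 the lowest, and its log2 fold change from untreated was 2.48 (SE 0.16, adjusted p = 0.000286). FOSL1 stood at 62.1, 48.1 and 47.5, a log2 fold change of 2.17 (adjusted p = 0.000234), and FOSB at 41.6, 35.9 and 30.7, a log2 fold change of 1.10 (adjusted p = 0.00203). FOSL2, which encodes FRA2, was higher by 1.06 (adjusted p = 0.00256) and JUND by 0.94 (adjusted p = 0.0016). FOS stood at 76.0, 89.1 and 72.4 RPKM, each under the lowest untreated library, where 50.2% of all genes tested had no overlap. Its log2 fold change was -0.43 (adjusted p = 0.0291). It lost its call under median-ratio scaling, at -0.28 (adjusted p = 0.0767), and kept it with an equal sum, at -0.92 (adjusted p = 0.00662). It also lost it with no filter (0.0584) and with all groups in one fit (0.0551). It also lost it without untreated replicate 1 (adjusted p = 0.107), 2 (0.125) or 3 (0.0734) or without treated replicate 1 (0.0791). JUNB was at 70.2, 67.1 and 47.7 (adjusted p = 0.304), with replicate 3 below the untreated range and the others above it, and under median-ratio scaling it was called, at 0.37 (adjusted p = 0.0496). Without that replicate, the library that stood apart, JUNB was called at 0.40 (adjusted p = 0.00148), FOS stayed lower at -0.37 (adjusted p = 0.00921) and JUN was at 2.67. Of the called genes 29.4% were higher, against 49.5% under median-ratio scaling and 4.28% with an equal sum, which moved the median gene by 0.14 and -0.45. After rescaling to an equal sum, JUNB was at -0.26, FOSL2 and JUND lost their calls at 0.60 (adjusted p = 0.0649) and 0.45 (0.0877), and JUN (2.01), FOSL1 (1.69) and FOSB (0.62) kept theirs.

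The doses at 6 h were then set against each other. None of the 7 genes was called by limma, and neither was any of the 14601 genes tested (0% called). At an unadjusted p under 0.05 there were 3 members, FOS, JUNB and FOSB, and 1242 genes. The difference of 10 from 2 μM was -0.64 for FOS (SE 0.14, adjusted p = 0.417), -0.44 for JUNB (SE 0.18, adjusted p = 0.581) and -0.43 for FOSB (SE 0.16, adjusted p = 0.574). It was -0.27 for JUN (SE 0.16, adjusted p = 0.627). The libraries of the doses did not overlap for FOS, FOSB and JUN, as in 18.2% of all genes tested. Rescaled to an equal sum, the differences of FOS, JUNB, FOSB and JUN were -0.79, -0.59, -0.58 and -0.43, none called (adjusted p = 0.685 for each). For FOSL1 the difference was -0.17 (SE 0.17) and for FOSL2 -0.20 (SE 0.16), with overlapping libraries.

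At 24 h the family split. With 2 μM, FOS was at 30.3, 35.4 and 19.2 RPKM, with replicate 3 the lowest. All were under every untreated library, and 44.9% of all genes tested had no overlap. The log2 fold change from untreated cells was -1.94 (SE 0.18, adjusted p = 0.000355). FOSB was at 5.57, 6.98 and 4.72, a log2 fold change of -1.45 (adjusted p = 0.000274). JUNB, at 38.9, 35.5 and 38.1, was lower by 0.46 (adjusted p = 0.00103), a call lost with all groups in one fit (0.0505). FOSL1 moved the other way, to 15.1, 13.4 and 19.3, a log2 fold change of 0.48 (adjusted p = 0.0184), as did FOSL2, at 7.01, 5.58 and 7.72, by 0.37 (adjusted p = 0.0408). FOSL1 lost its call with no filter (adjusted p = 0.0944), with all groups in one fit (0.0914) and without untreated replicate 2 (0.0592) or 3 (0.0605), and FOSL2 lost it in 5 of the 6 fits that left out 1 library (adjusted p from 0.0693 to 0.111) as well as with median-ratio scaling (0.0504) and an equal sum (0.18). The FOSL2 call was also lost with no filter (0.135), with all groups in one fit (0.134) and with no trend (0.0677). Under equal-sum rescaling, 23.0% of the called genes were higher, against 60.6% as deposited and 49.1% under median-ratio scaling. JUN, at 8.42, 6.54 and 11.7, and JUND, at 26.8, 24.3 and 26.7, overlapped the untreated range and were not called. Thus 5 of 7 members were called, 2 higher and 3 lower, where 27.3% of all genes tested were called, 16.6% higher and 10.8% lower.

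With 10 μM for 24 h, 4 of 7 members were called, all lower, where 35.2% of all genes tested were called, 19.5% higher and 15.7% lower. FOS was at 7.73, 8.45 and 9.26 RPKM against 98.4 to 115.3 in untreated cells. This is 0.0795 of the untreated mean, and the log2 fold change was -3.58 (SE 0.08, adjusted p = 2.51e-08). FOSB was at 2.82, 1.81 and 1.31, or 0.120 of the untreated mean, with a log2 fold change of -2.82 (SE 0.19, adjusted p = 1.54e-05). JUNB, at 26.4, 30.2 and 25.2, was lower by 0.92 (adjusted p = 4.07e-05). JUN, at 5.79, 5.41 and 6.02, was lower by 0.41 (adjusted p = 0.00427), a call lost with all groups in one fit (0.113). In these 4 genes every treated library was under every untreated one, and 49.3% of all genes tested had no overlap. FOSL1, at 13.8, 11.6 and 17.4, FOSL2, at 5.74, 4.90 and 6.16, and JUND, at 21.5, 27.9 and 23.0, overlapped the untreated libraries. Their log2 fold changes were 0.32 (SE 0.13, adjusted p = 0.0751), 0.12 (SE 0.10, adjusted p = 0.378) and -0.06 (SE 0.10, adjusted p = 0.7). FOSL1 was called without treated replicate 2, at 0.45 (adjusted p = 0.0141). With an equal sum 20.4% of the called genes were higher, against 55.3% as deposited.

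**Figure D2:**
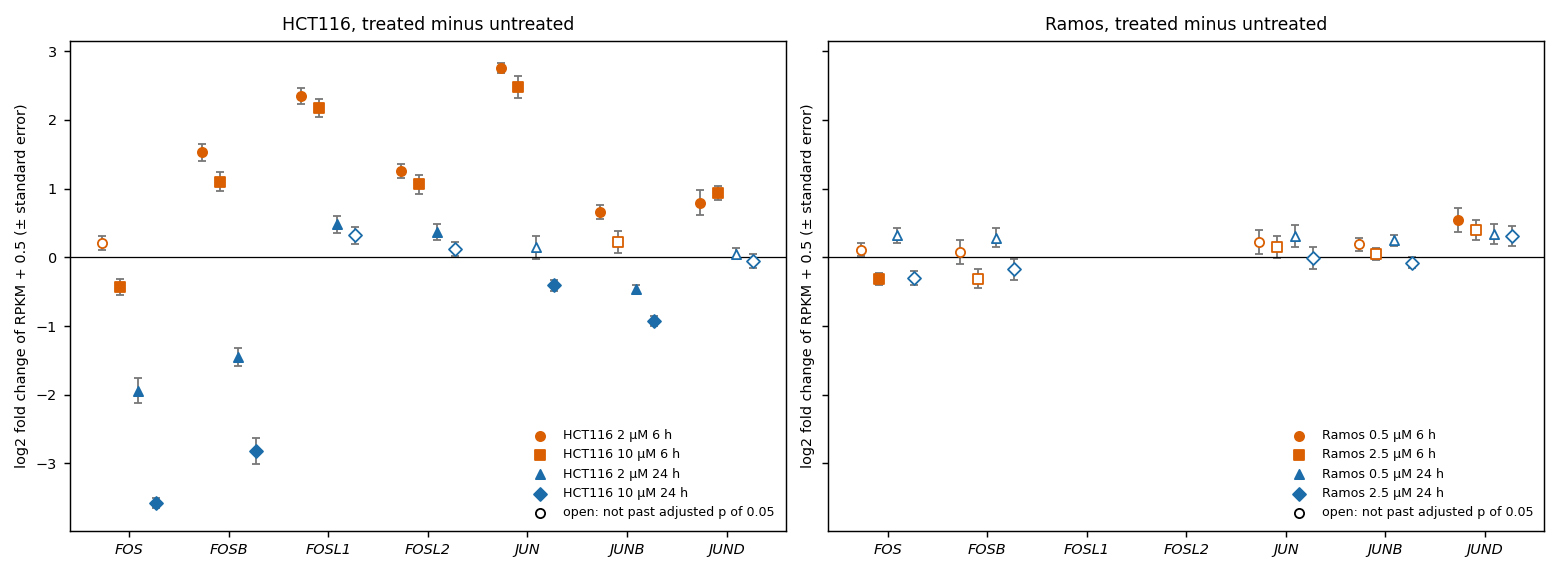
Log2 fold change of RPKM + 0.5 against the untreated cells of the same line (± standard error of the limma fit) for each gene, in HCT116 cells (left) and Ramos cells (right), with orange for 6 h, blue for 24 h and open symbols where the adjusted p was not under 0.05. HCT116 values run from 2.76 for JUN to -3.58 for FOS, and Ramos values lie between -0.31 and 0.54, with FOSL1 and FOSL2 absent there because they were below the filter.

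Between 6 and 24 h all 7 members fell at each dose. At 2 μM, 40.8% of all genes tested were called and 9.85% were lower at 24 h. At 10 μM, 7.86% were called and 2.06% were lower. In all 7 the libraries of the times did not overlap, as in 54.6% of all genes tested at 2 μM and 38.2% at 10 μM. The log2 difference was largest for FOSB, at -2.98 with 2 μM and -3.92 with 10 μM. It was -2.61 and -2.89 for JUN, -2.15 and -3.15 for FOS, -1.86 and -1.85 for FOSL1, -1.13 and -1.15 for JUNB, -0.89 and -0.94 for FOSL2, and -0.74 and -0.99 for JUND. At 2 μM the largest adjusted p of the 7 was 0.0109, for JUND, whose call was lost with no filter (0.0677), and at 10 μM it was 0.015, for FOSL2. After rescaling to an equal sum the falls at 10 μM were no longer called for FOSL2 (-0.66, adjusted p = 0.087), JUNB (-0.84, 0.0532) and JUND (-0.69, 0.0559). Leaving out any replicate of 10 μM at 24 h, or replicate 1 at 6 h, also ended the FOSL2 call (adjusted p from 0.0521 to 0.0897). JUNB lost its call without 24 h replicate 1 (0.0584) or 3 (0.0594).

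Between the doses at 24 h only FOS was called among the members. FOS was 0.300 as high at 10 as at 2 μM, a log2 difference of -1.64 (SE 0.18, adjusted p = 0.0116), where 0.180% of all genes tested were called and 0.0399% were lower. FOSB was lower by 1.36 (SE 0.21, adjusted p = 0.0524), and JUNB by 0.46 (SE 0.07, adjusted p = 0.069). JUN, at -0.55 (adjusted p = 0.281), was like these 3 in that the libraries of the doses did not overlap, as in 18.1% of all genes tested. FOSB and JUNB were called with an equal sum (adjusted p = 0.00375 and 0.0297). The FOS call was lost with no filter (adjusted p = 0.279), with no trend (0.149) and without 10 μM replicate 1 (0.0762) or 2 (0.0872). In the order of levels in HCT116 cells, every neighboring pair of groups was separate for FOSB. For FOS only 2 μM at 6 h and untreated overlapped, and for JUN only 2 μM at 24 h and untreated did. The share of all genes with such an order was not computed. In single comparisons of HCT116 groups, from 18.1 to 57.8% of all genes tested had no overlap.

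The composition of each family does not depend on how a library is scaled, since it is a share within the library. FOS made up 76.5% ± 0.80 of the summed FOS family RPKM in untreated HCT116 cells, against 50.6% ± 2.7 with 2 μM and 44.3% ± 4.3 with 10 μM at 6 h. At 24 h the share was 49.2% ± 10.4 with 2 μM and 28.1% ± 3.0 with 10 μM. With 10 μM at 24 h the libraries gave 25.7, 31.6 and 27.2%, against 75.8 to 77.4% in the untreated. The share of FOSL1 went from 8.06% ± 0.93 in untreated cells to 24.1% ± 1.1 and 29.3% ± 3.2 at 6 h, and to 28.7% ± 8.3 and 46.7% ± 3.8 at 24 h, for 2 and 10 μM. None of the treated groups overlapped the untreated one in either share, and the two-sided exact permutation p was 0.1 for each, the smallest that 3 libraries against 3 allow. FOSL2 took 18.5% ± 0.54 with 10 μM at 24 h, against 3.67% ± 0.37 untreated. FOSL1 was thus the leading FOS family transcript in all 3 libraries of 10 μM at 24 h, and FOS in all 3 untreated ones. The summed FOS family RPKM was 139.5 ± 9.6 untreated and 30.3 ± 3.7 with 10 μM at 24 h. The levels of FOSL1 and FOSL2 were not called in that comparison, so their larger shares there go with the fall of FOS and FOSB.

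In the JUN family the share of JUN was 9.18% ± 0.72 in untreated HCT116 cells, 30.5% ± 3.5 and 29.5% ± 2.0 at 6 h, and 12.2% ± 2.8 and 10.1% ± 1.4 at 24 h, for 2 and 10 μM. JUNB was the leading member in untreated cells, at 61.3% ± 2.0, and had 47.8% ± 1.4 with 10 μM at 24 h, when JUND had 42.1% ± 2.0. The ratio of summed FOS family to summed JUN family RPKM was 1.64 ± 0.05 in untreated cells. It was 1.34 ± 0.08 and 1.15 ± 0.07 at 6 h, and 0.791 ± 0.131 and 0.537 ± 0.106 at 24 h, for 2 and 10 μM.

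**Figure D3:**
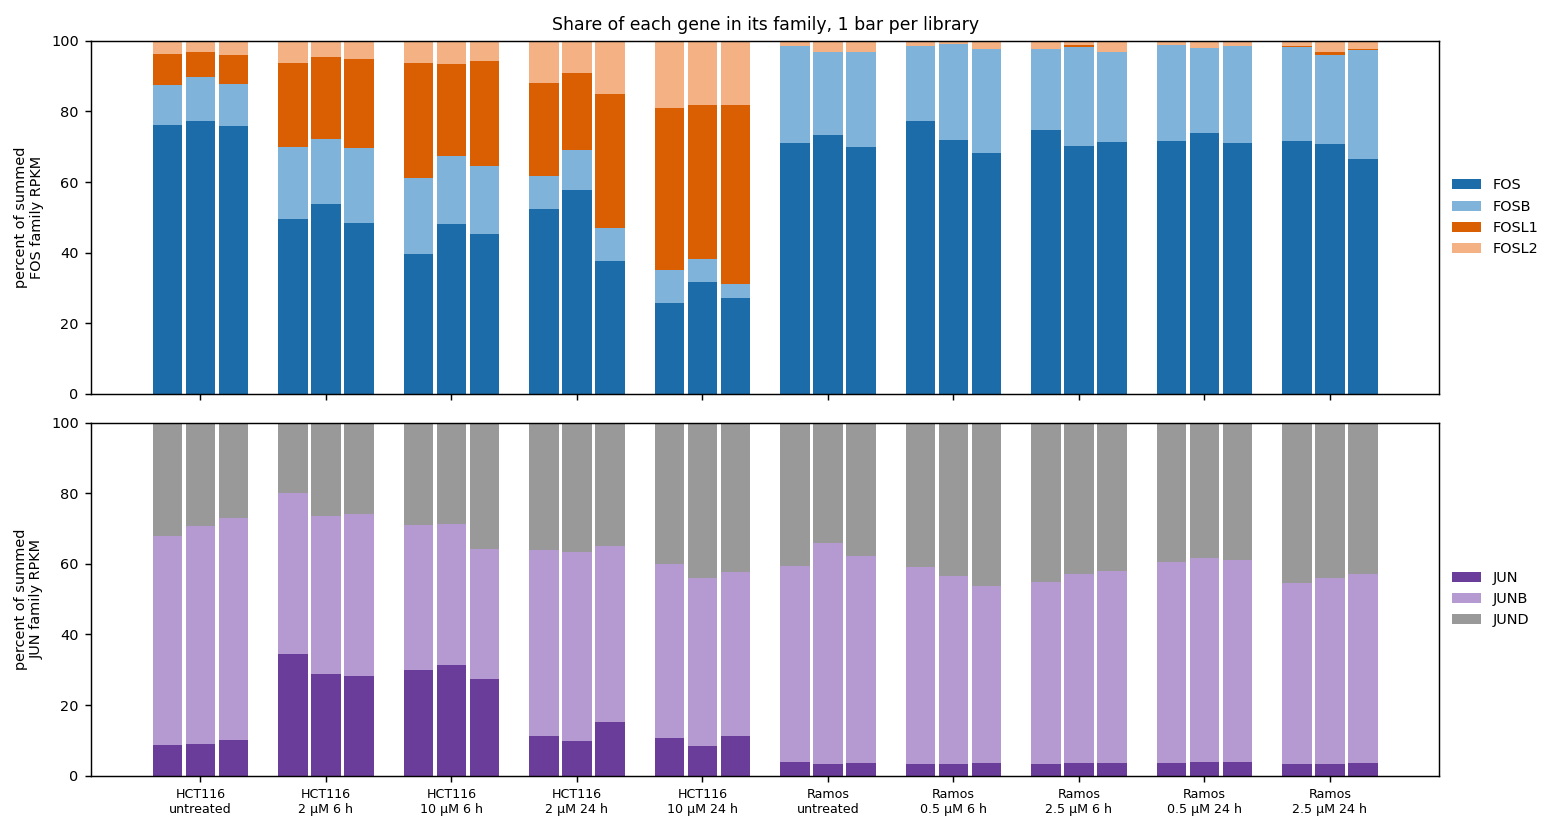
Share of each gene in the summed RPKM of its family (percent, 1 bar per library, 3 bars per group), with the FOS family above and the JUN family below. In HCT116 cells the FOS share is 76.5% untreated and 28.1% with 10 μM at 24 h, when the FOSL1 and FOSL2 shares are larger. The summed FOS family RPKM is then 30.3, against 139.5 untreated. The JUN share widens at 6 h, and the Ramos bars hold a FOS share of 69.7 to 72.5% in every group mean.

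In untreated cells 6 of the 7 members were called between the lines, all higher in HCT116 cells. Of all genes tested, 84.6% were called and 45.7% were higher in HCT116, so the number called is about the share over all genes. FOSL1 and FOSL2 reached the filter only through HCT116 cells, so the direction of their calls was fixed in advance. FOS was 14.4 times as high in HCT116 as in Ramos cells, where it was at 8.03, 7.34 and 6.90 RPKM, and the log2 difference was 3.76 (SE 0.08, adjusted p = 1.13e-08). FOSB was 6.09 times and JUN 3.32 times as high, and JUNB 1.35 times (adjusted p = 0.00331). FOSL2 was at 5.10 ± 0.28 RPKM in HCT116 and at 0.269 ± 0.090 in Ramos cells. FOSL1 was listed at 0 in all 3 untreated Ramos libraries, so no fold is given. JUND was at 25.0 ± 2.6 in HCT116 and 24.9 ± 6.4 in Ramos cells, a difference of 0.03 (SE 0.17, adjusted p = 0.875) in which Ramos replicate 1, at 32.1, lay above replicates 2 and 3, at 19.9 and 22.7. After rescaling to an equal sum, which moved the median gene by 0.56, JUND was higher in HCT116 cells by 0.60 (adjusted p = 0.0119). The ratio of FOS family to JUN family RPKM was 0.160 ± 0.015 in untreated Ramos cells.

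In Ramos cells 5 members could be tested, since FOSL1 and FOSL2 did not reach a mean RPKM of 0.5. FOSL1 was listed at 0 in every library of the untreated and 0.5 μM groups and did not exceed 0.0556 elsewhere, and FOSL2 lay between 0.0975 and 0.323. With 0.5 μM at 6 h JUND alone was called, where 23.6% of all genes tested were and 13.8% were called higher. It was at 31.0, 34.0 and 43.6 RPKM, which overlapped the untreated libraries, and its log2 fold change was 0.54 (SE 0.17, adjusted p = 0.0476). Rescaled to an equal sum, it was 0.64 (adjusted p = 0.00783). The call was lost under median-ratio scaling (adjusted p = 0.0572), with no filter (0.197), with no trend (0.118), and in 5 of the 6 fits without 1 library, that is without any treated replicate (from 0.0541 to 0.157) or without untreated replicate 2 (0.125) or 3 (0.11). With 2.5 μM at 6 h FOS alone was called, where 27.9% were, 17.3% higher and 10.7% lower. It stood at 6.06, 5.51 and 6.11, all under the untreated libraries (44.7% of all genes tested had no overlap), a log2 fold change of -0.31 (SE 0.09, adjusted p = 0.0308). Without untreated replicate 1, JUND was called at this dose too, at 0.59 (adjusted p = 0.0014), as were JUNB with 0.5 μM at 6 h (0.29, adjusted p = 0.028) and JUND with 2.5 μM at 24 h (0.50, adjusted p = 0.0222). With an equal sum JUND was called with 2.5 μM at 6 h (0.53, adjusted p = 0.0222) and at 24 h (0.51, adjusted p = 0.0202). All groups in one fit also called JUND with 2.5 μM at 6 h (0.40, adjusted p = 0.0356). The FOS call was lost after rescaling to an equal sum (-0.18, adjusted p = 0.177) and without any treated replicate (from 0.0656 to 0.111) or untreated replicate 1 (0.089) or 2 (0.0527).

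At 24 h no member was called against untreated Ramos cells by limma at either dose. With 0.5 μM 0.0146% of all genes tested were called, and 3 members had an unadjusted p under 0.05. With 2.5 μM the share called was 4.61%, and 1 member had an unadjusted p under 0.05. FOS was at 9.65, 10.6 and 8.03 RPKM with 0.5 μM and at 6.67, 5.31 and 5.78 with 2.5 μM, so that the doses did not overlap, as in 27.1% of all genes tested. Here 4.25% of all genes tested were called and 1.86% were lower at the higher dose. FOS was lower by 0.63 (SE 0.12, adjusted p = 0.0203) at 2.5 than at 0.5 μM, and JUNB, at 46.7, 44.3 and 45.5 against 35.8, 37.5 and 35.4, was lower by 0.33 (SE 0.04, adjusted p = 0.00594). Without 1 library the FOS difference lost its call for replicates 1 and 2 of 0.5 μM (adjusted p = 0.0649 and 0.0532) and replicates 2 and 3 of 2.5 μM (0.0881 and 0.0879). After rescaling to an equal sum JUNB lost its call (-0.19, adjusted p = 0.0627). No member was called by limma between the doses at 6 h, where 0.429% of all genes were and 2 members had an unadjusted p under 0.05. The same held between 6 and 24 h at 0.5 μM (25.4% of all genes called) and at 2.5 μM (23.0%), where no member had an unadjusted p under 0.05. The response to 2 μM in HCT116 and to 2.5 μM in Ramos cells was then compared as the interaction of line and treatment. At 6 h it was called for 6 members, all with the higher log2 fold change in HCT116 cells. Among them were FOSL1 and FOSL2, which reached the filter only through HCT116 cells. Of all genes tested, 40.6% were called at 6 h and 12.2% in that direction. At 24 h it was called for FOS, FOSB and JUNB, each lower in HCT116 cells, where 16.3% were called and 9.51% in that direction. JUN lay between 1.94 and 3.37 RPKM over all 15 Ramos libraries, and between 5.41 and 57.3 over the 15 HCT116 libraries.

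The share of called genes that were higher also moved with the scaling in the other comparisons. As deposited, with median-ratio scaling and with an equal sum it was 75.8, 47.3 and 92.4% between the times at 2 μM and 73.7, 42.2 and 92.1% at 10 μM in HCT116 cells, and 77.8, 75.0 and 44.7% between their doses at 24 h. In Ramos cells it was 58.7, 51.1 and 79.8% with 0.5 μM and 61.8, 51.5 and 85.2% with 2.5 μM at 6 h, 71.6, 43.4 and 97.4% with 2.5 μM at 24 h, 55.0, 49.6 and 77.0% between the times at 2.5 μM, and 43.1, 38.9 and 69.7% and 56.3, 39.4 and 92.6% between the doses at 6 and 24 h. Between the lines it was 53.9, 54.7 and 73.6%, and for the difference in response 30.0, 47.3 and 5.42% at 6 h and 41.7, 44.0 and 5.38% at 24 h.

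Likeness of pattern was measured across the 10 groups as the root mean square difference of group means on the log2 scale, after each line was centered on its own mean, over 11970 other genes. EGR1, an immediate early zinc finger factor, lay nearest to FOSB (0.20), with FOS next (0.40) and then DUSP1, a MAP kinase phosphatase gene (0.48). FOS had its nearest gene in FOSB, followed by the U2 small nuclear RNA gene RNU2-2P (0.55) and EGR1 (0.56). Among the genes nearest to FOSL1 were KLF6 (0.15) and the kinase gene SIK1 (0.18). JUN lay nearest to the nuclear receptor gene NR4A2 (0.22) and to the U1 small nuclear RNA genes RNU1-2 and RNU1-27P (both 0.23). These U1 genes had equal means and SDs in every group except HCT116 cells with 2 μM at 6 h, so they are not separate neighbors. Their libraries also spread widely, at 2049 ± 941.1 RPKM with 10 μM at 6 h. JUNB lay nearest to AMOTL2, KLF5 and IER2 (0.13 each), JUND to the NF-κB inhibitor gene NFKBIA (0.09) and to GADD45A and ITPKC (0.10 each), and FOSL2 to PHLDA2 (0.08), NR2F2 (0.08) and RNY3 (0.09). Among pairs of members JUND and FOSL2 were closest (0.20), and FOSB and JUND were farthest apart (0.93). A small difference is easier to reach for members that vary little: the root mean square of a member about its line mean was 1.15 for FOSB and 1.03 for FOS, but 0.33 for JUND. In Ramos cells the group means of FOSL1, FOSL2, AMOTL2, PHLDA2, NR2F2, RNY3, NR4A2 and SIK1 were all under 0.5 RPKM. AMOTL2 reached 0.022 there, where JUNB ran from 36.2 to 45.5. The 0.5 added to RPKM damps differences at such levels, so these likenesses rest mainly on the HCT116 groups.

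**Figure D4:**
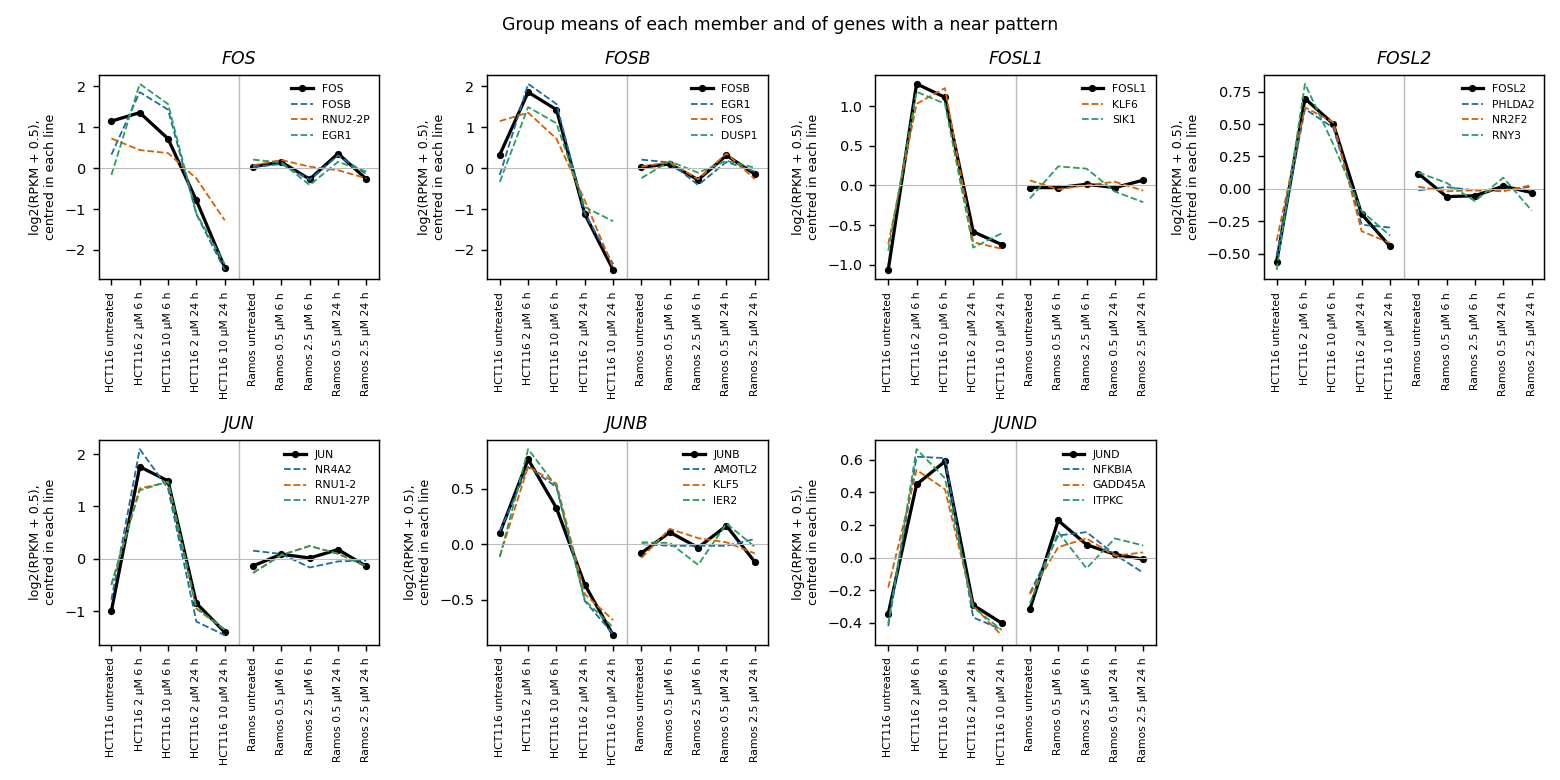
Group means of log2(RPKM + 0.5), centered in each line, for each of the 7 genes (black) and for genes with the nearest pattern (dashed, 2 for FOSL1 and 3 for each of the others), with the HCT116 groups to the left of the gray line and the Ramos groups to the right. FOSB and EGR1 run together (root mean square difference 0.20), and the vertical scale differs between panels.

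The other immediate early genes of a list of 24 were examined beside the members. In HCT116 cells 18 of 23 tested were higher and 1 lower with 2 μM at 6 h, and the median log2 fold change of the list was 1.30 against -0.12 for all genes, of which 47.3% were called. With 10 μM at 6 h, 16 were higher and 3 lower, where 30.0% of all genes were called. Under equal-sum rescaling, 17 were higher and 4 lower with 2 μM, and 12 were higher and 4 lower with 10 μM. CYR61, a secreted matricellular protein gene, went from 4.49 to 119.3 RPKM with 2 μM (log2 fold change 4.54), and NR4A1, an orphan nuclear receptor gene, from 6.31 to 103.4 (3.92). At 24 h none was higher, and 10 of 22 with 2 μM and 15 of 20 with 10 μM were lower. The shares over all genes tested were 16.6% higher and 10.8% lower with 2 μM, and 19.5% and 15.7% with 10 μM. EGR1 was lower by 0.94 (adjusted p = 0.000493) and 2.18 (adjusted p = 1.45e-06), and DUSP1 by 0.62 and 0.96, for 2 and 10 μM. In Ramos cells with 2.5 μM at 6 h, where 17.3% of all genes were higher and 10.7% lower, 1 of 16 was higher and 7 were lower, among them EGR2, at 5.11 against 31.1 RPKM (-2.50, adjusted p = 9.66e-07), and the antiproliferative gene BTG2 (-0.68).

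Of 18 other leucine zipper genes that partner or compete with AP-1, 6 of 15 tested were higher and 3 lower in HCT116 cells with 2 μM at 6 h, and 3 of 14 were higher and 3 lower with 10 μM. These 9 of 15 and 6 of 14 stand beside 47.3% and 30.0% of all genes called. With an equal sum 3 were higher and 5 lower with 2 μM, and 2 of 15 were higher and 6 lower with 10 μM. ATF3, a stress-induced factor that dimerizes with JUN proteins, was at 73.5 ± 4.5 RPKM with 2 μM and 48.1 ± 2.6 with 10 μM, against 7.72 ± 0.10 untreated (log2 fold changes 3.17 and 2.56). The small MAF gene MAFF was higher by 1.90 and 1.78. JDP2, which encodes a repressor that pairs with JUN, was lower by 0.86 and 1.04, and ATF2, a JUN partner at CRE-like sites, by 0.79 and 0.85. At 24 h with 10 μM 2 of 15 were higher and 5 lower, where 19.5% of all genes were higher and 15.7% lower. ATF3 was lower by 0.61 (adjusted p = 0.000603) and JDP2 by 0.68 (adjusted p = 0.00221). In Ramos cells with 2.5 μM at 6 h 2 of 15 were higher and 5 lower. Over all genes the shares were 17.3% higher and 10.7% lower. Among the 5 were BATF3 (-0.66), BATF (-0.66) and CREM, which encodes a cyclic AMP responsive factor and went from 62.0 to 40.9 RPKM (-0.59, adjusted p = 0.000297).

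Of the 20 factors and kinases known to act on FOS and JUN, 19 were tested in each comparison. In HCT116 cells at 6 h 2 were higher and 7 lower with 2 μM, and 1 was higher and 7 lower with 10 μM, where 47.3% and 30.0% of all genes were called. The 9 of 19 at 2 μM are about the share over all genes, and the list medians were -0.08 and -0.22 against -0.12 and -0.11. An equal sum left 1 higher and 15 lower with 2 μM, and 1 higher and 13 lower with 10 μM. SRF, the serum response factor that binds the FOS promoter, was at 27.8 ± 0.05 RPKM with 2 μM and 24.3 ± 3.6 with 10 μM, against 10.5 ± 0.12 untreated (1.36 and 1.16). MAPK3, which encodes ERK1, was lower by 0.53 and 0.78, and MAPK14, which encodes p38α, by 0.40 and 0.50. At 24 h 1 was higher and 10 were lower with 10 μM, where 19.5% of all genes were higher and 15.7% lower. The lower ones included ELK4, an SRF partner (-0.59, adjusted p = 0.000872). In Ramos cells SRF was higher by 0.28 (adjusted p = 0.0228) with 0.5 μM and by 0.35 (adjusted p = 0.00402) with 2.5 μM at 6 h.

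The list of 24 genes known to be AP-1 targets includes many that other factors also control. In HCT116 cells at 6 h 10 of 14 tested were higher and 2 lower with 2 μM, and 9 of 14 were higher and none lower with 10 μM, with list medians of 0.78 and 0.87 against -0.12 and -0.11 for all genes, of which 15.5% and 8.84% were called higher. Rescaled to an equal sum, 8 were higher and 2 lower with 2 μM, and 5 higher and none lower with 10 μM. CXCL8, the interleukin 8 gene, went from 1.02 RPKM untreated to 27.3 and 13.5 (log2 fold changes 4.19 and 3.16). AREG, which encodes the growth factor amphiregulin, went from 191.8 to 531.9 and 560.0. At 24 h 7 of 13 were higher and 1 lower with 2 μM, and 5 of 13 were higher and 2 lower with 10 μM. Over all genes tested, 16.6% were higher and 10.8% lower with 2 μM, and 19.5% and 15.7% with 10 μM. PLAUR, the urokinase receptor gene, was higher by 0.47 and 0.52, and ITGA2, an integrin gene, was lower by 0.82 and 0.85. In Ramos cells only 1 or 2 of the 24 reached the filter, and HBEGF, which encodes a growth factor, was called with 0.5 μM at 6 h, at 50.6 against 30.3 RPKM (0.73, adjusted p = 7.1e-05).

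Among 10 genes for proteins that act on AU-rich mRNA, all tested, 6 were higher and 2 lower with 2 μM at 6 h in HCT116 cells, and 2 were higher and 2 lower with 10 μM, where 47.3% and 30.0% of all genes were called. The list medians were 0.32 and 0.18 against -0.12 and -0.11 for all genes. Under equal-sum rescaling, 2 were higher and 2 lower with 2 μM, and 1 higher and 4 lower with 10 μM, with medians of -0.01 and -0.31 against -0.42 and -0.56. ZFP36, which encodes the decay factor tristetraprolin, was at 50.4 RPKM with 2 μM and 38.2 with 10 μM against 14.4 untreated (1.76 and 1.38). With 10 μM at 24 h none was higher and 4 were lower. These 4 of 10 stand beside 35.2% of all genes called, 19.5% higher and 15.7% lower. Among the lower ones were ZFP36 (-0.66, adjusted p = 0.000461) and ZFP36L2 (-0.85, adjusted p = 0.000548). In Ramos cells with 2.5 μM at 6 h 3 were higher and 1 lower, where 17.3% of all genes were higher and 10.7% lower. The lower one was ZFP36L1, at 9.72 against 17.1 RPKM (-0.79).

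ERCC1, on the strand opposite FOSB, was at 34.8 ± 1.4 RPKM in untreated HCT116 cells and at 33.9 ± 0.55 with 2 μM at 6 h, and it was not called against untreated in any HCT116 group (adjusted p from 0.157 to 0.908). HOOK2, opposite JUNB, was lower by 0.41 (adjusted p = 0.00615) with 2 μM at 6 h, when JUNB was higher, and was higher by 0.44 (adjusted p = 0.00787) with 10 μM at 24 h, when JUNB was lower. AC104695.3, inside a FOSL2 intron on its strand, was at 0.533 ± 0.092 RPKM with 2 μM at 6 h against 0.0548 ± 0.0477 untreated, levels under the filter, and its part in the FOSL2 values was not tested. FLJ31356 did not exceed a group mean of 0.0329.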

How the data were processed

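RNA-Seq was carried out on 30 libraries, 3 for each of 10 groups taken from the labels. The authors deposited RPKM for 57992 genes, and per the labels' processing notes RSEM was used, with no version. The aligner, build and annotation are not given in the sources used here. The values are fractional, whole reads were not recovered, and the depth is unknown. Replicates correlated at 0.988 to 0.997 on the log2 scale over 30 pairs, none of them identical. Gene symbols and coordinates came from GENCODE release 29 (57388 genes matched, 604 not) and promoters from RefSeq.

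Log2(RPKM + 0.5) was fitted with limma 3.58.1 in R 4.3.3 (lmFit, eBayes with a trend), keeping genes that averaged 0.5 RPKM or more in the libraries compared, with Benjamini-Hochberg adjustment over all genes tested and a threshold of 0.05, in 19 comparisons, 2 of them interactions of line and treatment. The procedure was tested on simulated data. Shares were compared by exact permutation tests. Alternatives were pseudocounts of 0.1 and 1, no filter or one at 2 RPKM, median-ratio scaling, an equal sum, all groups in one fit, eBayes with no trend, a block for the replicate number, and leaving out each library. Leaving out a library from the shares and rescaling the other lists were added after the data were seen.

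The members, lists and tests were chosen with earlier results of these data known. The text names the 7 members, per list up to 3 rises and 3 falls past the threshold with a mean RPKM of at least 2 that were largest, the 3 genes nearest to each member, and overlapping genes. Items withheld from the text are not reported here. Same-numbered libraries were checked for pairing, which the labels do not give, and were treated as unpaired in the main fits.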

Additional observations from a re-analysis of the deposited data

Results flagged for a closer look

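The response of 6 members at 6 h and of 3 members at 24 h differed between the lines, by the limma interaction of line and treatment with 2 μM in HCT116 and 2.5 μM in Ramos cells, doses that the labels give as different. The values are the HCT116 log2 fold change minus that of Ramos cells. Of all genes tested, 40.6% were called at 6 h, 12.2% in the positive direction, and 16.3% at 24 h, 9.51% in the negative direction. At 6 h the difference was 2.61 for JUN (adjusted p = 2.55e-06), 2.30 for FOSL1 (2.67e-06), 1.84 for FOSB (2.58e-05), 1.43 for FOSL2 (0.000132), 0.62 for JUNB (0.00898) and 0.52 for FOS (0.00956). FOSL1 and FOSL2 were at or near 0 in Ramos cells, so that their difference rests on HCT116 cells. For JUND it was 0.40 and not called (adjusted p = 0.287). At 24 h the difference was -1.63 for FOS (adjusted p = 0.0023), -1.28 for FOSB (0.00333) and -0.38 for JUNB (0.0356). After rescaling to an equal sum the differences at 6 h were no longer called for FOS (0.05, adjusted p = 0.757) and JUNB (0.14, 0.424). With all groups in one fit FOS was not called at 6 h (0.0583). At 24 h JUNB lost its call with the replicate block (adjusted p = 0.0859), no filter (0.0808), all groups in one fit (0.154) and no trend (0.0528), and in 9 of the 12 fits that left out 1 library (adjusted p from 0.059 to 0.0794) and kept it without replicate 1 of untreated HCT116 cells, of HCT116 cells with 2 μM or of untreated Ramos cells. The most abundant RNA took 11.6 to 16.8% of the summed RPKM in Ramos libraries, and its part in these differences was not tested.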

How the results depend on the processing

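Of the results recomputed under the other settings, 980 kept their direction and their side of the threshold, 14 passed it only there, 41 no longer passed it and 11 changed sign. When 1 library was left out these numbers were 708, 14, 42 and 22. The cause was not tested. The depth is unknown, and 3 libraries a group limit the precision.

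The number of members called changed by more than 1.5 times as follows. In HCT116 cells with 2 μM at 24 h (5 called) it was 3 with no filter and 2 with all groups in one fit. Between 6 and 24 h at 10 μM (7) it was 4 with an equal sum. Between the doses at 24 h (1) it was 2 with a pseudocount of 1, a mean RPKM of at least 2, all groups in one fit or the replicate block, 3 with an equal sum, and 0 with no filter or no trend. In Ramos cells with 0.5 μM at 6 h (1) it was 0 with no filter, median-ratio scaling, no trend or the replicate block. With 2.5 μM at 6 h (1) it was 0 with no filter or the replicate block and 2 with all groups in one fit. With 2.5 μM at 24 h (0) it was 1 with an equal sum, and between the doses at 24 h (2) it was 1 with no filter or an equal sum and 0 with no trend. Smaller changes gave 5 to 7 in HCT116 cells with 2 μM at 6 h (6), 4 to 6 with 10 μM at 6 h (6), 3 to 4 with 10 μM at 24 h (4), 6 to 7 between the times at 2 μM (7), 6 to 7 between the lines (6), and 4 to 6 (6) and 2 to 4 (3) for the difference in response at 6 and 24 h.

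With an equal sum the sign changed in HCT116 cells for FOS with 2 μM at 6 h (-0.13), JUNB with 10 μM at 6 h (-0.26), JUND with 2 μM at 24 h (-0.10), FOSL2 with 10 μM at 24 h (-0.053) and JUND between the doses at 6 h (-0.013). It changed in Ramos cells for JUN (0.16) and JUNB (0.12) with 2.5 μM at 24 h and JUND between the doses at 24 h (0.11), and in the difference between the lines for JUND at 6 h (-0.071) and JUN at 24 h (-0.16). Under median-ratio scaling FOS changed sign between 6 and 24 h at 2.5 μM in Ramos cells (-0.011).

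Leaving out 1 library gave 6 to 7 members called in HCT116 cells with 2 μM and 5 to 7 with 10 μM at 6 h, 3 to 5 and 4 to 5 at 24 h, 7 to 7 and 5 to 7 between the times, and 0 to 0 and 0 to 1 between the doses. In Ramos cells it gave 0 to 2 with 0.5 μM and 0 to 1 with 2.5 μM at 6 h, 0 to 0 and 0 to 1 at 24 h, 0 to 1 between the times at each dose, and 0 to 0 and 1 to 2 between the doses. It gave 6 to 6 between the lines, and 6 to 7 at 6 h and 2 to 5 at 24 h for the difference in response. Log2 fold changes that changed sign ran in HCT116 cells from -0.060 to 0.34 for JUN and -0.033 to 0.11 for JUND with 2 μM at 24 h, from -0.16 to 0.021 for JUND with 10 μM at 24 h and from -0.11 to 0.28 for JUND between the doses at 6 h. In Ramos cells they ran from -0.084 to 0.23 for FOSB with 0.5 μM and -0.016 to 0.15 for JUNB with 2.5 μM at 6 h, from -0.11 to 0.15 for JUN and -0.15 to 0.019 for JUNB with 2.5 μM at 24 h, from -0.081 to 0.071 for FOS between the times at 2.5 μM, from -0.14 to 0.049 for JUN between the doses at 6 h and from -0.065 to 0.022 for JUND at 24 h. They ran from -0.11 to 0.23 for JUND between the lines and from -0.051 to 0.35 for JUN in the difference at 24 h.

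The number of all genes called moved by more than 1.5 times as follows. With an equal sum it was 7235 against 4439 for HCT116 cells with 10 μM at 6 h, 47 against 27 between their doses at 24 h, 4 against 2 and 5362 against 627 for Ramos cells with 0.5 and 2.5 μM at 24 h, 33 against 58 and 2567 against 579 between their doses at 6 and 24 h, and 9881 against 6317 and 6397 against 2565 for the difference between the lines at 6 and 24 h. With no filter it was 2282 against 4071 for HCT116 cells with 2 μM at 24 h, 296 against 1173 between the times at 10 μM, and 5 between the doses at 24 h. In Ramos cells it was 2008 against 3209 with 0.5 μM at 6 h, 0 and 84 with 0.5 and 2.5 μM at 24 h, 2307 against 3462 and 2040 against 3125 between the times, and 0 and 65 between the doses at 6 and 24 h. With all groups in one fit it was 1113 and 2535 (against 5220) for HCT116 cells with 2 and 10 μM at 24 h, 4297 between the times at 10 μM, and 137 and 8 between the doses at 6 and 24 h. For Ramos cells it was 1 and 1242 at 24 h and 904 between the doses at 24 h, and for the difference between the lines at 24 h 1333. With no trend it was 4 between the HCT116 doses at 24 h, 24 for Ramos cells with 2.5 μM at 24 h, and 0 and 54 between the Ramos doses at 6 and 24 h. A mean RPKM of at least 2 gave 1 for Ramos cells with 0.5 μM at 24 h and 91 between the doses at 6 h, and median-ratio scaling gave 346 with 2.5 μM at 24 h. Leaving out 1 library moved it to between 1813 (without untreated replicate 3) and 7565 (without treated replicate 3) for HCT116 cells with 10 μM at 6 h, to 2167 or more with 2 μM at 24 h, and to between 161 (without 24 h replicate 2) and 3506 (without 6 h replicate 3) between the times at 10 μM. Between the HCT116 doses it gave 0 to 93 and 9 to 24. In Ramos cells it gave 1853 to 3012 with 0.5 μM and 2446 to 3703 with 2.5 μM at 6 h, 1 to 4 and 60 to 929 at 24 h, 2256 or more between the times at 0.5 μM, and 0 to 18 and 142 to 645 between the doses at 6 and 24 h. The difference between the lines at 24 h had 1627 or more. The shares beside the members rest on these.

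Groups share replicate numbers, but the mean correlation of same-numbered deviations lay between -0.172 and 0.0967, and in none was every pair over 0.1. The samples thus share only a number. With 10 μM at 6 h in HCT116 cells each library correlated best with its own number (r = 0.0565, 0.148 and 0.0855), a hint from the data, not the design. With the replicate block 256 genes were called between the times at 10 μM and 2 between the doses at 6 h in HCT116 cells. The block also ended the calls of FOSL2 between the times at 10 μM (adjusted p = 0.0601), JUND with 0.5 μM (0.0626) and FOS with 2.5 μM (0.0548) at 6 h in Ramos cells, and it called FOSB between the HCT116 doses at 24 h (0.0276). For Ramos cells it gave 197 with 2.5 μM at 24 h, and 2 and 366 between the doses at 6 and 24 h, and for the difference between the lines at 24 h 1238.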
